A study of Mus musculus with 16 samples.

Results

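The genes described here are 8 activity-induced effector genes: Arc, Homer1, Plk2, Nrn1, Ptgs2, Rgs2, Rheb and Dusp1. They were found by their gene symbols, each on 1 row of every library, and are 8 of the 24972 genes listed. The study compared bulk RNA of microdissected dorsal CA1, CA3 and dentate gyrus (DG) from mice trained in active place avoidance, where a sector of a rotating arena is electrified, with untrained mice that walked the same arena with the shock always off. All animals, trained and untrained, carried ArcCreERT2::eYFPflx on a C57BL/6 background and were 3 to 4 months old. The retention test came 24 h after training, and tissue was taken 60 min after that test. There were 16 libraries, labelled as from 6 animals: 3 trained and 3 untrained in CA1, 3 trained and 2 untrained in CA3, and 3 trained and 2 untrained in DG. The transgene places CreERT2 under the Arc promoter, and how far its transcript adds to the Arc value was not tested.

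When excitatory neurons fire strongly, calcium and MAP kinase signals reach the nucleus and a first wave of genes is transcribed without new protein synthesis. Some encode transcription factors such as Fos and Egr1, while effector genes encode proteins that act directly at the synapse or in signalling. In the hippocampus the effectors are known for trimming glutamate receptors, remodelling the postsynaptic scaffold and damping the signals that induced them. Their RNAs rise and decay within hours, so a single time point is 1 moment of that course.

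The values are normalized estimated counts that the authors had deposited, and differences between groups are given as log2 differences of value + 2, trained minus untrained. A gene is called where the limma adjusted p, taken over all genes tested, is under 0.05. Within a group each library is numbered for a different animal, and the tissue pieces of an animal were pooled by subregion. In bulk tissue, fewer cells of a type and less RNA per cell cannot be told apart.

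In CA1, Homer1 and Plk2 were lower and Ptgs2 and Nrn1 were higher in trained than in untrained mice. Markers of CA1 pyramidal cells were lower in the same 3 trained libraries, at a mean log2 value of 7.42 to 7.59 against 8.44 to 9.11. With that mean as a covariate, an alternative chosen after seeing the data, none of the 4 was called, beside 1.96% of all genes. That mean and training ran together in the 6 CA1 libraries (Pearson r = -0.944), so their parts cannot be told apart. No member was called in CA3 or in DG, where 0.852% and 3.39% of all genes were. With the 3 subregions combined and no block for the animal, Ptgs2 alone was called, beside 10.3%. At those shares few or no calls among 8 genes are near the background. The training effect on Homer1 in CA1 differed from that in DG by a test of the difference, which called 2.75% of all genes. The same test called Plk2, but not when any of 4 animals was left out. In CA1 the 4 called members of 8 stand beside 5.23% of the 13588 genes tested, of which 3.53% were higher and 1.7% lower. The median size of the CA1 difference was 0.39 over the 8 members and 0.13 over all genes.

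The upstream sequence was examined because many genes of this class are controlled through the cyclic AMP response element, which is bound by CREB. The 3 windows shown are those of the called members that had an entry in the RefSeq promoter table, with the more upstream of both start sites for Homer1. The table was matched by symbol and held 6 of the 8 members with 7 start sites. Arc and Nrn1 had none. Each line is the 250 bases before the annotated start, 5′ to 3′ on the strand of the gene (GRCm38.p6), and capitals mark the element core TGACG or its reverse complement CGTCA.
Homer1, chr13:93303507-93303756, plus strand: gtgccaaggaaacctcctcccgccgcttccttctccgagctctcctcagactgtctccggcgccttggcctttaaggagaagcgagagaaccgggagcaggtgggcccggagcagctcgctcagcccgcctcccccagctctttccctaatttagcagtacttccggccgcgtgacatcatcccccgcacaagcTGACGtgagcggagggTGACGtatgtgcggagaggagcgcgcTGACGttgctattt
Plk2, chr13:110394794-110395043, plus strand: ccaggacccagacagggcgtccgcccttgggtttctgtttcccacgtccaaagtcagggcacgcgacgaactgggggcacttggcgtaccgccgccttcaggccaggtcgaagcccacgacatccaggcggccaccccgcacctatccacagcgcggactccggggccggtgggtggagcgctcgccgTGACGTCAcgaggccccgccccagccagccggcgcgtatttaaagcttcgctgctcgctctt
Ptgs2, chr1:150099781-150100030, plus strand: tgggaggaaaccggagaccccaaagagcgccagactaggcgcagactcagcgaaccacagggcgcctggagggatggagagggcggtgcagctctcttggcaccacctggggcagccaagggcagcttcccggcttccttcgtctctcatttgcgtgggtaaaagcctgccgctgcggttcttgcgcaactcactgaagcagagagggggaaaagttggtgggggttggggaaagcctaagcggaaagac

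Homer1 held 3 cores, which began 56, 40 and 14 bases before the start. In Plk2 the pair of overlapping cores made the full palindrome TGACGTCA 62 bases before the start. The Ptgs2 window shown held neither, and the second Homer1 start site did not either. Only bases before each annotated start were searched, so an element after it would not be counted. Dusp1 held the palindrome 143 bases before its start and a separate core at 191. Rgs2 held cores at 185 and 67 bases, and Rheb held 1 at 247 bases. A core was present in 5 of the 7 member windows and in 17.8% of 32851 windows of the same length, and the palindrome in 2 of the 7 and in 1.55% of all windows. By GENCODE the Homer1 window lies in an intron of a longer Homer1 transcript, the Plk2 window lies in no annotated gene, and most of the Ptgs2 window is in an exon of the antisense RNA Ptgs2os. Such a match describes letters only, and no binding was measured.

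The CA1 libraries of trained and untrained mice also differed in other respects. Xist lay between 7601.3 and 19592.0 in the 9 trained libraries and between 25.5 and 52.4 in 6 of the 7 untrained libraries, whereas CA3 untrained 1 had 10587.5 and so stood apart from CA1 and DG of its own animal. DG trained 3 had the lowest trained Xist value together with a Y-linked transcript, Ddx3y, at 255.2, against 100.6 and 92.9 in CA1 and CA3 of its animal. Ddx3y in CA1 trained 1 was 70.9, against 12.9 and 1.8 in CA3 and DG of its animal. The methods list both sexes in each group, and in CA1 and in DG the sex-linked transcripts and training cannot be told apart. Genes listed at 0 numbered 3124 to 5425 in untrained CA1 and 8323 to 9759 in trained CA1, and 3578 and 5659 in untrained CA3 against 3171 to 8692 in trained CA3. In DG the order was the opposite of that in CA1, with 7567 and 8636 untrained and 3479 to 5944 trained. The part of these differences in the values of the members was not tested within a subregion.

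The subregion labels were only weakly marked. The summed value of 11 DG granule cell markers was 13602.0 to 16684.9 in CA1, 12032.7 to 20437.2 in CA3 and 14448.6 to 17709.5 in DG, so the DG markers did not separate the subregions. Only 1 of 14673 genes differed in level between CA3 and DG (0.00682%). The 6 CA1 pyramidal cell markers, among them Fibcd1, Wfs1, Pou3f1, Mpped1 and Lefty1, summed to 3281.0 to 5299.9 in untrained CA1 but to 1623.5 to 2010.9 in trained CA1, 940.2 to 1625.8 in CA3 and 1350.5 to 2142.5 in DG. None of the 6 was at 0 in any library. In trained CA1 all 6 were lower and 3 of 6 were called, among them Fibcd1 (-1.32, limma adjusted p = 0.0139) and Lefty1 (-1.39, limma adjusted p = 0.00128). The 9 CA3 markers summed to 3551.9 to 3792.6 in trained and 2600.5 to 2713.5 in untrained CA1.

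**Figure D1:**
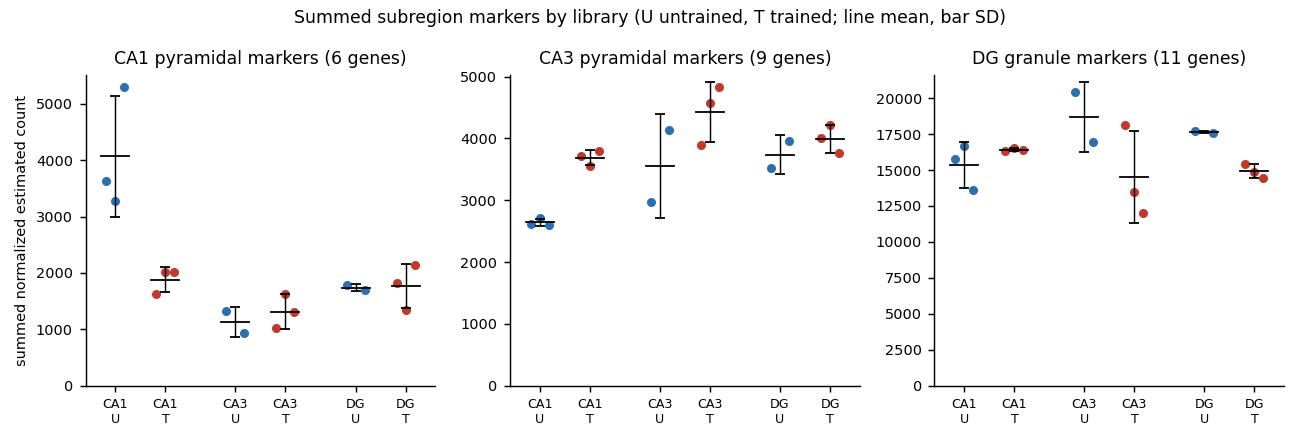
Summed normalized estimated counts of the CA1 (6 genes), CA3 (9 genes) and DG (11 genes) markers in each library, by subregion and training (U, untrained; T, trained), with the mean as a line and the SD as a bar. The 3 untrained CA1 libraries, at 3281.0 to 5299.9, lie above all others for the CA1 markers, and the DG markers overlap across the 3 subregions.

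Arc encodes a cytoskeleton-associated protein that speeds removal of AMPA receptors from synapses. The gene lies on chromosome 15 of GRCm38 from 74669083 to 74672570, minus strand. Its value in CA1 was 2080.7, 2771.6 and 4066.8 in untrained mice and 1509.6, 1894.2 and 1758.5 in trained mice. The highest trained library was below the lowest untrained library. The means were 2973.1 ± 1008.3 (SD, n = 3) untrained and 1720.8 ± 195.0 (SD, n = 3) trained, a log2 difference of -0.74 (standard error 0.29, limma adjusted p = 0.291). The untrained libraries were widely spread, and the difference was not called. It was -0.49 without the untrained library at 4066.8 and -0.97 without the one at 2080.7. Over the alternatives the adjusted p ran from 0.0274, without robust variance estimation, to 0.863. Outside CA1 Arc was even: 1664.8 and 1609.4 in untrained CA3 against 1578.6, 1452.2 and 1521.0 in trained CA3. In DG it was 1420.7 and 1718.3 untrained and 1520.9, 1459.0 and 1644.1 trained. The CA3 groups did not overlap and the DG groups did, with log2 differences of -0.11 (limma adjusted p = 0.502) and -0.02 (limma adjusted p = 0.923). Untrained CA1 came first in order of level, above every other library, followed by trained CA1 and by the 4 CA3 and DG groups with means from 1517.3 to 1637.1. After untrained CA1, the mean ± SD ranges of neighbours in this order overlapped.

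Homer1 encodes postsynaptic scaffold proteins that tie group I metabotropic glutamate receptors to Shank and to calcium stores. Its short form, Homer1a, is the one induced by activity and it uncouples that scaffold. The gene spans 93299635 to 93405129 on the plus strand of chromosome 13, with 12 annotated transcripts, and the deposited value sums them, so Homer1a and the long forms cannot be told apart. The CA1 values were 1453.3, 1396.3 and 1542.0 in untrained mice and 917.6, 1060.0 and 940.2 in trained mice. The groups did not overlap, and each group was tight. The means were 1463.9 ± 73.4 (SD, n = 3) and 972.6 ± 76.5 (SD, n = 3), a log2 difference of -0.59 (standard error 0.067, limma adjusted p = 3.17e-05), which was a fold of 0.66. Homer1 stood at rank 18 by p among the genes tested in CA1. The call held with each library left out in turn. In CA3 it was 1067.8 and 1135.1 untrained and 966.1, 1157.3 and 1092.0 trained, which overlapped (-0.04, limma adjusted p = 0.854). In DG the values were 1034.0 and 1032.3 untrained and 1069.4, 1105.0 and 1072.1 trained. All trained DG libraries were higher, by a log2 difference of 0.07 that was not called (limma adjusted p = 0.656). Untrained CA1 was above every other library, and the other 5 group means, from 972.6 in trained CA1 to 1101.5 in untrained CA3, overlapped between neighbours in mean ± SD.

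Plk2 encodes a polo-like kinase that is induced by sustained activity and weakens excitatory synapses by loss of the spine regulator Sipa1l1. It lies on chromosome 13 from 110395046 to 110400844, plus strand. The CA1 values were 1673.6, 1771.2 and 2047.6 in untrained mice and 1263.6, 1311.8 and 1471.3 in trained mice. No trained library reached an untrained one. The means were 1830.8 ± 194.0 (SD, n = 3) and 1348.9 ± 108.7 (SD, n = 3), and the log2 difference was -0.44 (standard error 0.075, limma adjusted p = 0.00223). In CA3 Plk2 was 1180.6 and 1406.8 untrained and 1144.2, 1139.3 and 1322.2 trained (-0.1, limma adjusted p = 0.644). In DG it was 1379.1 and 1435.9 untrained and 1436.9, 1420.5 and 1508.7 trained (0.05, limma adjusted p = 0.753). Both pairs of groups overlapped. Untrained CA1 was again above all other libraries, and the remaining means ran from 1201.9 in trained CA3 to 1455.4 in trained DG, each overlapping its neighbour in mean ± SD. Leaving out each library in turn kept the CA1 difference between -0.35 and -0.5 and kept the call.

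Nrn1 encodes neuritin, a small membrane-anchored protein that promotes neurite growth and spine maintenance. The gene lies on chromosome 13 from 36725361 to 36735131, minus strand. The CA1 values were 1741.6, 1970.8 and 1724.9 in untrained mice and 2252.2, 2281.0 and 2134.3 in trained mice. All 3 trained libraries exceeded the highest untrained library. The means were 1812.4 ± 137.4 (SD, n = 3) and 2222.5 ± 77.7 (SD, n = 3), a log2 difference of 0.3 (standard error 0.059, limma adjusted p = 0.00478). Without the first untrained library the difference was 0.27 and the adjusted p was 0.0544, in a fit that called 329 genes in place of 710. In CA3 Nrn1 was 2368.3 and 2279.5 untrained and 2489.7, 2121.9 and 2378.8 trained. In DG it was 2162.0 and 2803.4 untrained and 2511.1, 2462.7 and 2283.2 trained. The groups overlapped in both (0.0 and -0.03, limma adjusted p = 0.997 and 0.915). Untrained CA1 was below every other library, and the other group means, from 2222.5 to 2482.7, overlapped between neighbours in mean ± SD.

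Ptgs2 encodes cyclooxygenase-2, which makes the prostaglandin precursor in activated neurons. It lies on chromosome 1 from 150100031 to 150108227, plus strand. The CA1 values were 241.9, 274.6 and 214.6 in untrained mice and 370.2, 335.3 and 404.3 in trained mice. The groups did not overlap, and all trained values were higher. The means were 243.7 ± 30 (SD, n = 3) and 369.9 ± 34.5 (SD, n = 3), which gave a log2 difference of 0.6 (standard error 0.108, limma adjusted p = 0.00206) and a fold of 1.52. In CA3 Ptgs2 was 311.7 and 444.6 untrained and 367.0, 472.8 and 491.0 trained (0.24, limma adjusted p = 0.568). In DG it was 312.4 and 375.5 untrained and 444.2, 431.6 and 348.8 trained (0.24, limma adjusted p = 0.282). The groups overlapped in both, with the trained mean higher in each. Without CA3 untrained 1, whose Xist value stood apart, the CA3 difference was -0.01 (limma adjusted p = 0.986), and without the other untrained library it was 0.49 (limma adjusted p = 0.234). Untrained CA1 was the lowest group, below every library of the other 5 groups, whose means from 343.9 to 443.6 overlapped between neighbours in mean ± SD.

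Rgs2 encodes a regulator of G protein signalling that ends signals through Gq. Its gene lies on chromosome 1 from 143999338 to 144004161, minus strand. The CA1 values were 277.5, 251.2 and 219.3 untrained and 212.1, 197.4 and 220.0 trained, which overlapped by a single library (-0.24, limma adjusted p = 0.249). In CA3 the values were 270.7 and 223.4 untrained and 221.5, 194.4 and 184.2 trained, which did not overlap (-0.3, limma adjusted p = 0.275). In DG they were 248.0 and 223.9 untrained and 224.1, 215.5 and 237.5 trained (-0.06, limma adjusted p = 0.821). Rgs2 had a lower trained mean in all 3 subregions, and none of these differences was called. Its group mean was highest in untrained CA1 (249.3) and lowest in trained CA3, and the mean ± SD ranges of neighbours in that order overlapped.

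Rheb encodes the small GTPase that switches on the growth kinase mTORC1, and was the steadiest member. It lies on chromosome 5 from 24802823 to 24842624, minus strand. Over the 16 libraries its value ranged only from 400.6 to 484.9, with a mean of 443.9 ± 25.7 (SD). In CA1 the means were 446.1 ± 3.3 (SD, n = 3) untrained and 435.4 ± 33.1 (SD, n = 3) trained, a log2 difference of -0.04 with a 95% interval from -0.21 to 0.14 (limma adjusted p = 0.863). Trained and untrained groups overlapped in every subregion. The CA3 and DG differences were -0.08 and 0.07.

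Dusp1 encodes a phosphatase that inactivates MAP kinases, and had the lowest value per exon length of the 8. It lies on chromosome 17 from 26505590 to 26562128, minus strand. The CA1 values were 103.2, 85.9 and 85.4 untrained and 82.0, 58.9 and 74.5 trained, which did not overlap (-0.35, limma adjusted p = 0.3). In CA3 they were 55.9 and 77.9 untrained and 60.5, 87.0 and 100.6 trained, and in DG 119.3 and 71.7 untrained and 74.7, 70.7 and 71.6 trained. Both overlapped, with differences of opposite sign, 0.29 and -0.35, neither called (limma adjusted p = 0.58 and 0.404). In DG the untrained library at 119.3 stood above all other libraries of the series. Without that library the DG difference was 0.01 (limma adjusted p = 0.984). Without the other untrained DG library, with the spread taken from the trained libraries, it was -0.71 (limma adjusted p = 0.0321), in a fit that called 11.4% of all genes.

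**Figure D2:**
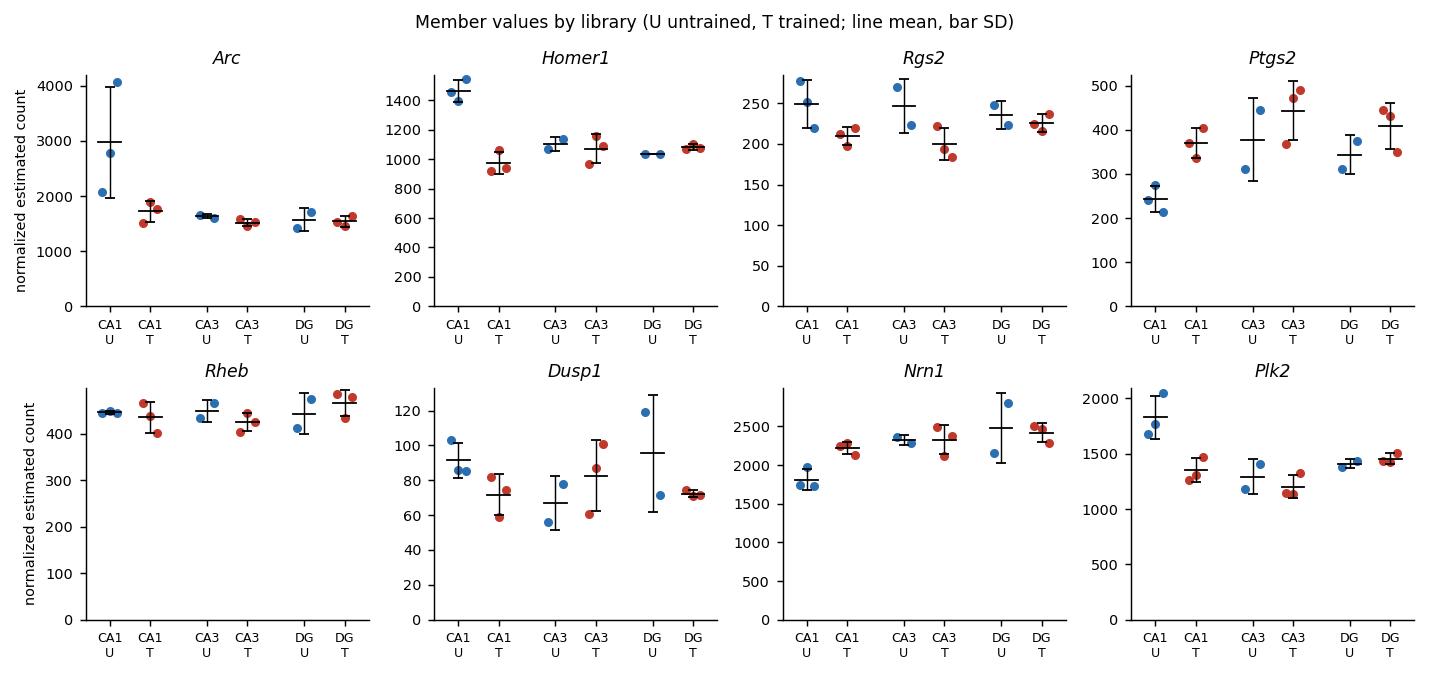
Normalized estimated count of each of the 8 members in each library, by subregion and training (U, untrained; T, trained), with the mean as a line and the SD as a bar, on axes that start at 0. Untrained CA1 lies apart from the other groups for Arc, Homer1, Plk2, Nrn1 and Ptgs2, and Rheb stays between 400.6 and 484.9 throughout.

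Levels of different genes were compared only per length, as mean value per 1000 bases of merged exons over the 16 libraries. On that scale Nrn1 (999.5) and Arc (606.6) were highest and Plk2 (318.9) next. Homer1 (94.1), Ptgs2 (79.7), Rgs2 (62.4) and Rheb (57.5) lay close together, and Dusp1 (24.2) was lowest.

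In CA1, trained and untrained libraries did not overlap for 6 of the 8 members, against 24% of all genes tested. Arc, Homer1, Plk2 and Dusp1 had every trained library below and Ptgs2 and Nrn1 every trained library above. In CA3 this held for 2 of 8 members, Arc and Rgs2, both below, and in DG for Homer1 alone, above. The shares of all genes were 33.9% in CA3 and 35.6% in DG, so these are counts near or under the background. None of the 8 was called in CA3, where 0.852% of 13848 genes were, and 1 had an unadjusted p under 0.05 against 15.8% of all genes. Without CA3 untrained 1, which left 1 untrained library whose spread was taken from the others, none was called there and the differences lay between -0.23 and 0.05. Without the other untrained library none was called either, and they lay between -0.44 (Rgs2) and 0.52 (Dusp1). In DG none of the 8 was called against 3.39% of 13935 genes, and 0 of the 8 had an unadjusted p under 0.05 against 19.5%. With the 3 subregions together, 1 of 8 was called against 10.3% of 14673 genes, namely Ptgs2 with a log2 difference of 0.38 (standard error 0.094, limma adjusted p = 0.0135). The other 7 members had adjusted p-values from 0.0581 (Rgs2, -0.2) to 0.875 (Rheb, -0.02), with Arc at -0.33 and Homer1 at -0.22. That fit had no block. With the animal as a random block Rgs2 was also called, beside 12% of all genes. With the replicate number as a block Plk2 was also called, beside 9.5%. For Ptgs2 the value without CA3 untrained 1 was 0.34 (limma adjusted p = 0.0428). With a sex-linked score as a covariate it was 0.51 (limma adjusted p = 0.404), and 0 of 14673 genes were called. It was 0.24 (limma adjusted p = 0.229) without the 6 CA1 libraries, an alternative chosen after seeing the data, and 0.29 (limma adjusted p = 0.208) without the first untrained animal. Without the second trained animal it was 0.37 (limma adjusted p = 0.0843).

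**Figure D3:**
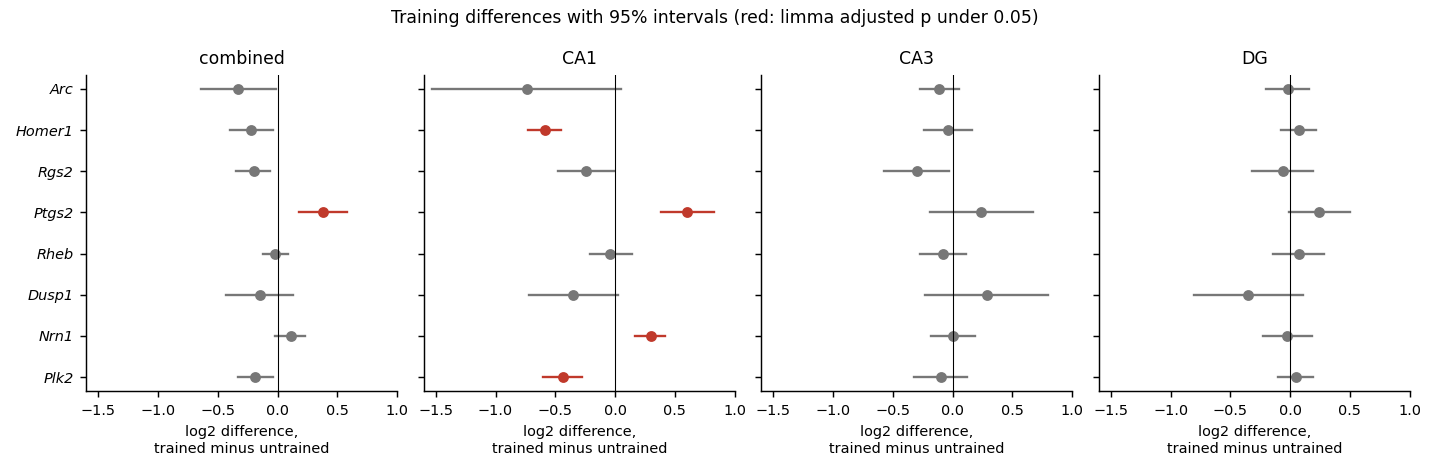
Log2 difference, trained minus untrained, of each member with its 95% interval, in the combined comparison and in CA1, CA3 and DG (points; red where the limma adjusted p is under 0.05). The 4 red points in CA1 are Homer1 and Plk2 below 0 and Ptgs2 and Nrn1 above, and no point is red in CA3 or DG.

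The difference between subregions in the training effect was tested directly. For CA1 against DG, 2 of 8 members were called, beside 2.75% of 14673 genes. The Homer1 effect was lower in CA1 by 0.66 on the log2 scale, written as -0.66 (limma adjusted p = 0.00293), and the Plk2 effect differed by -0.49 (limma adjusted p = 0.0332). Homer1 stayed called with any animal left out. Plk2 did not, with an adjusted p of 0.101 without trained animal 1, 0.125 without trained animal 2, 0.0742 without untrained animal 1 and 0.0851 without untrained animal 3. Without DG trained 3 alone, an alternative chosen after seeing the data, Homer1 was -0.66 (limma adjusted p = 0.0135) and Plk2 -0.46 (limma adjusted p = 0.0851). For CA1 against CA3 none of 8 was called, beside 0.0273% of genes, and 4 had an unadjusted p under 0.05, beside 6.71%. Homer1 had the smallest p (-0.55, limma adjusted p = 0.07). For CA3 against DG none was called, beside 0.164% of genes, and 0 had an unadjusted p under 0.05, beside 11.7%. The effects on Ptgs2 and Nrn1 were not shown to differ between CA1 and DG (0.36 and 0.32, limma adjusted p = 0.401 and 0.146), and without the third untrained animal the values were 0.14 and 0.1. Without the third trained animal Ptgs2 was 0.18, and without the first untrained animal Nrn1 was 0.48. The number of genes listed at 0, given above, was higher in trained libraries in CA1 and in untrained libraries in DG, and its part in these contrasts was not tested.

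The level of the members between subregions, averaged over training, was compared next. Against CA3, Plk2 was higher in CA1 by 0.33 (limma adjusted p = 0.00621), the only call of 8, beside 0.988% of genes. Against DG, Nrn1 was lower in CA1 by a log2 difference of -0.28 (limma adjusted p = 0.00947), 1 of 8, beside 4.05% of genes. Between CA3 and DG no member was called, and 1, Plk2, had an unadjusted p under 0.05 (-0.2), beside 6.86% of genes. Without the second trained animal Plk2 had an adjusted p of 0.0616 and Nrn1 of 0.0556, and without the third untrained animal Nrn1 fell to -0.17 (limma adjusted p = 0.112). By the labels, libraries of 1 training group with the same number are from 1 animal, although the Xist value of CA3 untrained 1 goes against this, and when the fit carried the animal as a block Ptgs2 was also called lower in CA1 than in CA3 (-0.41, limma adjusted p = 0.0437) and in DG (-0.38, limma adjusted p = 0.0394), and Arc higher in CA1 than in DG (0.54, limma adjusted p = 0.0177). Without the block these were -0.43, -0.32 and 0.51 (limma adjusted p = 0.0636, 0.104 and 0.0808). Without CA3 untrained 1, the library that stood apart from its animal, Ptgs2 was also called between CA1 and CA3 (-0.56, limma adjusted p = 0.00865).

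Arc and the 4 members called in CA1 were set against the CA1 marker score, the mean log2 value of the 6 CA1 markers. That score was 8.44 to 9.11 in untrained CA1 and 7.42 to 7.59 in trained CA1, with no overlap, and 6.5 to 7.83 in CA3 and DG. Arc, Homer1 and Plk2 were highest, and Ptgs2 and Nrn1 lowest, in the 3 libraries with the highest score. Over the 10 CA3 and DG libraries, which share animals, Pearson r with the score was -0.26 to 0.1 for Arc, Homer1, Ptgs2 and Nrn1 and 0.61 for Plk2, given as a description. With the score as a covariate in CA1, an alternative chosen after seeing the data, no member was called and 1.96% of all genes (266 of 13588) were. The Homer1 difference became -0.29 (limma adjusted p = 0.658), Plk2 0.02 (0.988), Ptgs2 0.03 (0.992) and Nrn1 0.05 (0.971). Arc, not called in either fit, went from -0.74 to 0.64 (limma adjusted p = 0.863). The score and training divided the 6 CA1 libraries in the same way, so their parts in these values cannot be told apart.

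**Figure D4:**
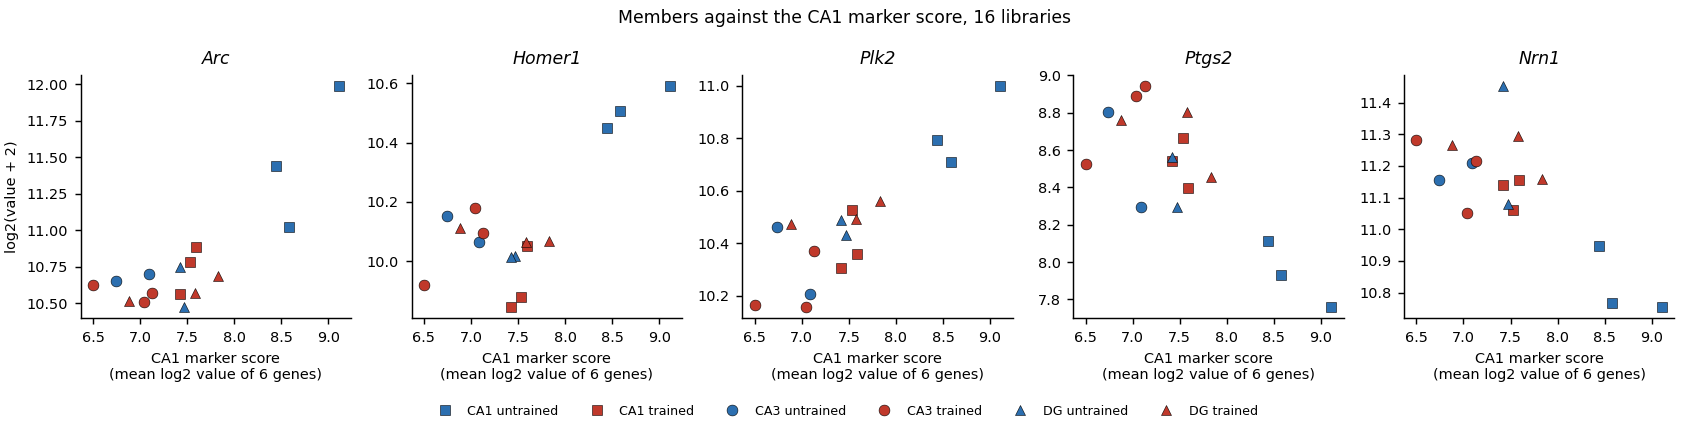
Log2(value + 2) of Arc, Homer1, Plk2, Ptgs2 and Nrn1 against the CA1 marker score (mean log2 value of 6 genes) in the 16 libraries, with squares for CA1, circles for CA3, triangles for DG, and blue for untrained and red for trained mice. The 3 untrained CA1 libraries lie alone at scores of 8.44 to 9.11, at the top for Arc, Homer1 and Plk2 and at the bottom for Ptgs2 and Nrn1.

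For Arc the genes of most similar profile were sought among 10766 other genes with a mean value of at least 50, by the root mean square difference of centred log2 values over the 16 libraries. Nr4a1 (0.162), Homer2 (0.164) and Egr1 (0.179) were nearest, against 0.387 for the departure of Arc from its own mean. After centring in each subregion the same genes were nearest, Nr4a1 at 0.125, Egr1 at 0.146 and Homer2 at 0.156. Nr4a1 and Egr1 encode activity-induced transcription factors and Homer2 a relative of Homer1. All 4 were highest in the third untrained CA1 library.

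**Figure D5:**
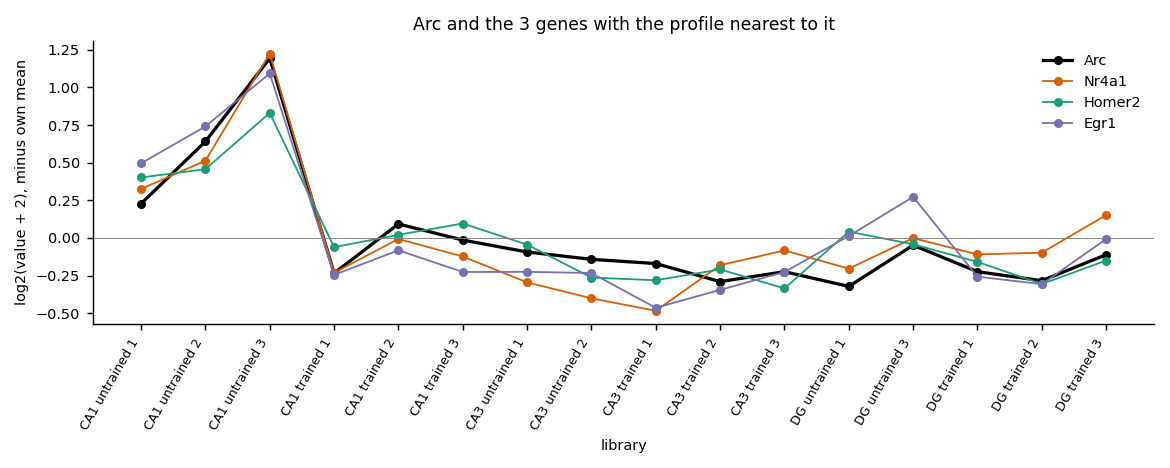
Log2(value + 2) minus its own mean for Arc and the 3 genes of most similar profile in the 16 libraries, with lines that only join points of the same gene. Arc reaches 1.19 above its mean in the third untrained CA1 library, and its trained CA1, CA3 and DG values stay near or below the mean.

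Among the other members, Homer1 was nearest to Nuak1 (root mean square difference 0.112), Tspan13 and Nr6a1. Plk2 was nearest to Dusp6 (0.105), Kcnab1 and Arl15, and Nrn1 to Ncald (0.075), Anxa11 and Erc2. Ptgs2 was nearest to Elavl2 (0.121), which is on the CA3 marker list, then to Neto1 and Ogfrl1. Rgs2 was nearest to Chl1 (0.07), Bmi1 and Lrrn1, Rheb to Araf (0.047), Etf1 and Gspt1, and Dusp1 to Nkain1 (0.172), Fkbp1b and Podxl2.

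The immediate early transcription factors, which are induced in the same first wave, were read as a list. Of 22 tested, 5 were called lower and 1 called higher in trained CA1 (14 and 8 by sign), beside 1.7% and 3.53% of all genes, with a list median of -0.14 against 0 over all genes, and none was called in CA3 or DG, beside 0.852% and 3.39% of all genes. Egr2, an early transcription factor, was 98.3 ± 30.9 (SD, n = 3) in untrained and 30.8 ± 10 (SD, n = 3) in trained CA1 (-1.61, limma adjusted p = 0.00169). Fos was 142.4 ± 17.2 and 84.4 ± 5.7 (-0.74, limma adjusted p = 0.00521), and Egr4 differed by -0.98 (limma adjusted p = 0.0108). Jund, a Jun family member, was higher (0.5, limma adjusted p = 0.0126). The CA1 markers, as given above, were lower in the same 3 trained libraries, and their part in these differences was not tested.

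Of 29 other activity-induced effectors tested, 1 was called in each of CA1, CA3 and DG, each lower, beside 5.23%, 0.852% and 3.39% of all genes in either direction. In the combined comparison 1 was called higher and 4 called lower, beside 10.3%. The CA1 gene was Trib1, a pseudokinase (-0.79, limma adjusted p = 0.0157). In CA3 it was Inhba, an activin subunit, at 247.7 ± 7.2 (SD, n = 2) untrained and 143.4 ± 23.2 (SD, n = 3) trained (-0.79, limma adjusted p = 0.0324), and without CA3 untrained 1 the difference was -0.76 (limma adjusted p = 0.262). The sum of the choroid plexus markers was 241.0 to 328.3 in trained and 821.0 to 1132.4 in untrained CA3, where 6 of 6 were lower by sign and 2 called, and the 7 leptomeningeal markers were also all lower by sign with none called (356.1 to 409.4 against 493.9 to 560.0). Their part in the CA3 differences was not tested. In DG it was Scg2, the precursor of secretoneurin (-0.35, limma adjusted p = 0.0165; -0.33 and 0.0926 without DG trained 3). Dusp4, a nuclear phosphatase, was lower in the combined comparison (-0.23, limma adjusted p = 0.0326), but not without CA3 untrained 1 (-0.19, limma adjusted p = 0.104) or without DG trained 3 (-0.22, limma adjusted p = 0.0514).

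The partners of Arc and Homer1 were read from lists of synaptic genes and gene families linked to them. A place on these lists does not mean that the product binds Arc or Homer1. Of 22 Arc partners tested in CA1, 7 were called higher and 0 called lower (16 and 6 by sign), beside 3.53% and 1.7% of all genes. Those called included Dnm1, the dynamin of synaptic vesicle recycling (0.31, limma adjusted p = 0.00047), the endophilin Sh3gl2 (0.33, limma adjusted p = 0.0011) and the clathrin adaptors Ap2a2 (0.28, limma adjusted p = 0.00343) and Ap2a1 (0.29, limma adjusted p = 0.0198). Of 11 Homer1 partners, 5 were called higher and 2 called lower in CA1. The scaffold genes Shank1 (0.69, limma adjusted p = 3.79e-07) and Shank3 (0.83, limma adjusted p = 1.68e-06) rose in CA1, as did Homer3 (0.86, limma adjusted p = 6.64e-05), which is also on the CA3 marker list, while Homer1 fell by 0.59. Those called lower, named after their values were seen, were the paralog Homer2 (-0.54, limma adjusted p = 0.0186) and Itpr1, a calcium channel of internal stores (-0.31, limma adjusted p = 0.0223). None of the 22 Arc partners or 11 Homer1 partners was called in CA3 or in DG, beside 0.852% and 3.39% of all genes, which is near the background. In trained CA1 the CA1 markers were lower in 6 of 6 (median -1.17) and the CA3 markers called higher in 5 of 9 and lower in 1 (median 0.37), and their part in the partner differences was not tested.

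The calls in the lists that follow stand beside 3.53% of all genes called higher and 1.7% lower in CA1, 0.737% higher in CA3, 1.66% lower in DG and 4.06% lower combined. In the prostaglandin pathway of Ptgs2, 1 of 10 genes tested in CA1 was called higher, Dagla, which makes an endocannabinoid (0.21, limma adjusted p = 0.038), and 1 called lower, Ptgds, a prostaglandin D synthase (-1.02, limma adjusted p = 1.97e-08). Ptgds is also known from the leptomeninges and choroid plexus. In CA1 the choroid plexus markers were lower by sign in 5 of 5 tested with none called (median -0.84), and their sum was 316.9 to 2419.4 in trained and 1020.2 to 1191.9 in untrained mice, with Folr1 at 0 in 1 trained library. The leptomeningeal markers were lower by sign in 5 of 7 with 1 called (median -0.15), and their sums overlapped, at 407.0 to 590.4 and 468.1 to 575.4. Their part in the Ptgds value was not tested. Of 9 relatives and substrates of Plk2, 1 was called higher in CA1, and in DG 1 was called lower, Rasgrf1, a Ras activator (-0.21, limma adjusted p = 0.0476; -0.21 and 0.137 without DG trained 3). Of 11 genes listed as relatives of Rgs2 or in G protein signalling, Adcy5, an adenylyl cyclase, was called higher in CA3 (0.48, limma adjusted p = 0.0407). Without CA3 untrained 1, which left 1 untrained library and gives a size only, the Adcy5 difference was 0.53. Rgs5, known from vascular mural cells, was called lower in DG (-0.51, limma adjusted p = 0.0464). Without DG trained 3 the Rgs5 difference was -0.49 (limma adjusted p = 0.148). The 6 endothelial markers were all lower by sign in trained DG with 1 called (median -0.41), their sum was 505.2 to 557.0 in trained and 701.3 to 935.2 in untrained mice with none at 0, and their part in the Rgs5 value was not tested. Of 17 genes of the Rheb pathway tested in CA1 none was called, and Tsc2, which inhibits Rheb, had the smallest p (0.2, limma adjusted p = 0.0552). Of 16 Dusp1 relatives and MAP kinases, none was called in any single subregion, and Dusp4 and Mapk3 were called lower in the combined comparison (-0.23 and -0.18, limma adjusted p = 0.0326 and 0.0392). Without CA3 untrained 1 neither was called, with Mapk3 at -0.14 (limma adjusted p = 0.128). Nrn1l, the relative of Nrn1, was too low to be tested.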

How the data were processed

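RNA of CA1, CA3 and DG was sequenced after ribosomal RNA depletion according to the protocol, although the label for the molecule reads polyA RNA. The authors aligned reads with STAR to GRCm38 as the submitters' processing notes name it (the methods also write another build name) and estimated gene counts with Salmon. The deposited signal is a normalized estimated count per gene: median-of-ratios factors computed from it were 1.005 in every library. Whole reads could not be recovered, so the depth is unknown and no counting interval is given. Value sums per library were 7607326 to 7984931.

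Because a count test could not be used, limma 3.58.1 in R 4.3.3 was fitted on log2(value + 2) over all genes, with robust estimation, a trend of variance on mean and adjustment by Benjamini and Hochberg, and was tested on simulated data. Genes were kept at a value of at least 10 in at least 3 libraries (CA1) or 2 libraries (others), and all 8 members passed. The combined comparison had subregion as a term, and levels and differences between training effects came from 1 fit of the 6 groups. The combined fit treated the libraries of an animal as independent. Their deviations from the group means correlated from -0.108 to 0.092 (14 pairs), and numbers in trained and untrained animals pair no samples by the labels. These pairs take the animal from the labels, which the Xist value of CA3 untrained 1 goes against. They therefore cannot decide whether the libraries of an animal are independent. Alternatives covered scaling, filters, the pseudocount, robust estimation, blocks, covariates and each animal left out. From each pathway list the text names at most the 4 called genes with the smallest adjusted p. Homer2 and Itpr1, named after their values were seen, come on top of these. Where none was called the gene of smallest p is named, and for each member the 3 genes of nearest profile. The members and lists were chosen with earlier results of these data known. Positions are from GENCODE vM21 and upstream sequences from RefSeq. Spatial data were not analysed here, and a few genes of the lists are not reported here.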

Additional observations from a re-analysis of the deposited data

Results flagged for a closer look

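The training effect on Homer1 differed between CA1 and DG by -0.66 on the log2 scale (limma adjusted p = 0.00293). All 3 trained CA1 libraries were below all untrained CA1 libraries, beside 24% of all genes without overlap in either direction. All 3 trained DG libraries were above the untrained ones, beside 35.6% of all genes without overlap in DG. That DG difference was 0.07 and was not called (limma adjusted p = 0.656). The contrast between CA1 and DG stayed called with any animal left out. The training effect on Plk2 differed by -0.49 (limma adjusted p = 0.0332), with 3 of 3 trained CA1 libraries lower and the DG groups overlapping. Its adjusted p was 0.0742 to 0.125 without each of 4 of the 6 animals and 0.0851 without DG trained 3, so it was not called there. Both were picked out because the test of the difference between subregions passed its threshold. The CA1 marker sum was 1623.5 to 2010.9 in trained and 3281.0 to 5299.9 in untrained CA1, and 1350.5 to 2142.5 against 1696.0 to 1784.0 in DG; genes listed at 0 were more numerous in trained CA1 and in untrained DG. The part of these in the difference was not tested. No single library stood outside its group when each member was examined over all trained and over all untrained libraries (16 groups, subregions together).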

How the results depend on the processing

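Depth is unknown, 2 untrained libraries in CA3 and in DG limit precision there, and sex-linked transcripts divide CA1 and DG, and the CA1 markers CA1, as training does. Of 1176 member values over all comparisons and alternatives, 1074 kept their direction and their side of the threshold, 61 changed sign while called in neither setting, 17 lost and 23 gained a call, and 1 called value changed sign: Plk2 in CA1, 0.02 with the CA1 marker score as a covariate. The cause was not tested.

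The number of members called in the combined comparison, 1 in the fit reported, was 2 with upper-quartile scaling, with the replicate block and with the animal as a random block, 0 with a sex-linked covariate (which left 0 of 14673 genes called), 0 with the CA1 marker score (9% of genes called) and 0 without the CA1 libraries (5.24% called). In CA1, where 4 were called, it was 0 with the CA1 marker score (1.96% called), an alternative chosen after seeing the data, as was leaving out the CA1 libraries. For the level of CA1 against CA3 it was 2 without robust estimation, with the replicate block and without CA3 untrained 1, in place of 1. Against DG it was 2 without robust estimation and 3 with the replicate block, in place of 1; in both the block was the animal. The difference in training effect between CA1 and CA3 had 1 with upper-quartile scaling, in place of 0. With each animal left out in turn the count ranged from 0 to 2 combined, 3 to 4 in CA1, 0 to 0 in CA3, 0 to 1 in DG, 0 to 3 and 0 to 2 for the level of CA1 against CA3 and DG, 0 to 1 and 1 to 2 for the difference in training effect of CA1 against CA3 and DG, and 0 to 0 for CA3 against DG in both. The share of all genes called moved in those fits from 3.15% to 12.8% combined, 2.46% to 6.46% in CA1, 0.0509% to 4.94% in CA3, 0.203% to 11.4% in DG, 0.357% to 1.23% and 0.775% to 2.98% for the levels, and 0% to 0.474% and 0.165% to 2.43% for the differences of CA1 against CA3 and DG. The ranges of member counts are therefore not results about the members. The DG call was Dusp1 without the third untrained animal (-0.71, limma adjusted p = 0.0321), where 11.4% of 13844 genes were called, and Dusp1 was 0.01 (limma adjusted p = 0.984) without the first.

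Trained and untrained animals share only a number, and same-numbered libraries deviated together at correlations from -0.18 to 0.119 in 7 pairs. With that number as a replicate block the combined comparison also called Plk2 (-0.2, limma adjusted p = 0.0444), and CA1 kept its 4 members called. Without DG trained 3, chosen after seeing the data, 2 members were called in the combined comparison and 1 for the difference in training effect of CA1 against DG. Rgs2 was called in the combined comparison in that setting (-0.22, limma adjusted p = 0.0479), with upper-quartile scaling (-0.21, limma adjusted p = 0.0491), with the animal as a random block (-0.21, limma adjusted p = 0.045) and without the third untrained animal (-0.27, limma adjusted p = 0.0141).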
